A study of Mus musculus with 8 samples.

Results

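The insulin and insulin-like growth factor (IGF) genes described here are 8 genes of the mouse tumour transcriptome, out of 50143 gene IDs in the count table. They were chosen by symbol, as the ligands *Igf1* and *Igf2*, the receptors *Igf1r*, *Insr* and *Igf2r*, and the adaptors *Irs1*, *Irs2* and *Pik3r1*. All 8 were found and all 8 passed the filter on low counts, which left 14887 genes to test. RNA was sequenced from 8 tumours formed by Py230, a mammary adenocarcinoma line of C57BL/6 background, in mammary gland 4 of female C57BL/6 mice. The 4 obese tumours grew in mice on a diet with 60% of its calories from fat (5.1 kcal/g), and the 4 lean tumours in mice on a diet with 10% (3.6 kcal/g). Every mouse had been ovariectomized at 6 weeks of age, began its diet 2 weeks later and stayed on it for 6 weeks before the cells were injected. Mean weight gain on the high-fat diet was 35%, and the tumours were removed at day 56. A single cell line was used, all hosts lacked ovaries, and each tumour also holds cells of its host.

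Insulin and the IGFs are secreted peptides that activate a pair of related tyrosine kinases, the insulin receptor and the type 1 IGF receptor, which can also pair with each other. The activated receptors phosphorylate the docking proteins IRS1 and IRS2, these recruit phosphoinositide 3-kinase (PI3K) through its regulatory subunit p85-alpha, the product of *Pik3r1*, and AKT and mTOR act further on. IGF2R has no kinase domain and carries IGF2 and mannose 6-phosphate-tagged enzymes to lysosomes. In mammary tissue this pathway drives the growth of ducts, and in obesity the insulin level in blood commonly rises.

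The comparison asks which genes of the tumours differ between obese and lean hosts. Levels are CPM, read counts scaled to library size and to TMM factors, and changes are log2 values of obese minus lean ± standard error (SE). A gene is called where edgeR's quasi-likelihood test gives an adjusted p under 0.05 over all tested genes. That held for 59.2% of tested genes, 30.9% higher and 28.4% lower in obese tumours. Of the called genes 52.1% were higher, against 41.2% with upper quartile factors. Library totals ran from 25.7 to 66.7 M counts. On the first principal component obese replicate 3 scored 12.9, nearest to the lean side, whereas its group's other scores spanned −135.9 to −96.5 and lean scores spanned 70.2 to 93.7. The line is labelled an adenocarcinoma, an epithelial tumour, and 3 of 7 epithelial markers were called lower in obese tumours. Of the called markers, *Krt19* had 4 to 10 counts and *Cldn4* 0 to 87 counts in obese tumours. Both passed the filter on low counts only through their lean levels, so their calls are no separate support for a fall. Each of the 7 lay lower in every obese tumour than in any lean tumour, as did 28.1% of tested genes. The 7 markers summed to 63.1, 274, 817 and 239.8 CPM in obese replicates 1 to 4, against 1328 to 2589 CPM in lean tumours. Of the obese sums *Krt8* alone gave 58.4, 267, 221.8 and 221.5 CPM. *Epcam* stood at 0.495, 4.203, 174.7 and 5.52 CPM in the obese tumours and from 233 to 539 CPM in the lean ones, a difference that did not pass (−3.24 ± 1.55, edgeR adjusted p = 0.101). *Cldn4*, which fell (−4.60 ± 1.15, edgeR adjusted p = 0.0109), had no count in obese replicate 1.

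In obese tumours *Igf1r* was 8.31 times and *Insr* 1.90 times its lean level, while *Irs1*, *Irs2*, *Pik3r1*, *Igf2* and *Igf2r* were lower and *Igf1* was not called. Of the 8 genes 2 rose and 5 fell, with 59.2% of all tested genes called, and the median of their log2 changes was −1.60 against −0.04 over all tested genes. The groups did not overlap for 6 of the 8, all but *Igf1* and *Insr*, against 57.0% of all tested genes. Of these 6, *Igf1r* lay higher in obese tumours (28.9% of tested genes did so) and 5 lay lower (28.1%). The 5 that fell and the 5 that lay lower both include *Igf2*. That gene passed the filter only through its lean levels and gives these counts no separate support. Leaving out obese replicate 3 kept the count at 7, and so did leaving out both obese replicate 3 and lean replicate 2, while leaving out obese replicate 4, lean replicate 1 or lean replicate 4 brought it to 5.

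**Figure D1:**
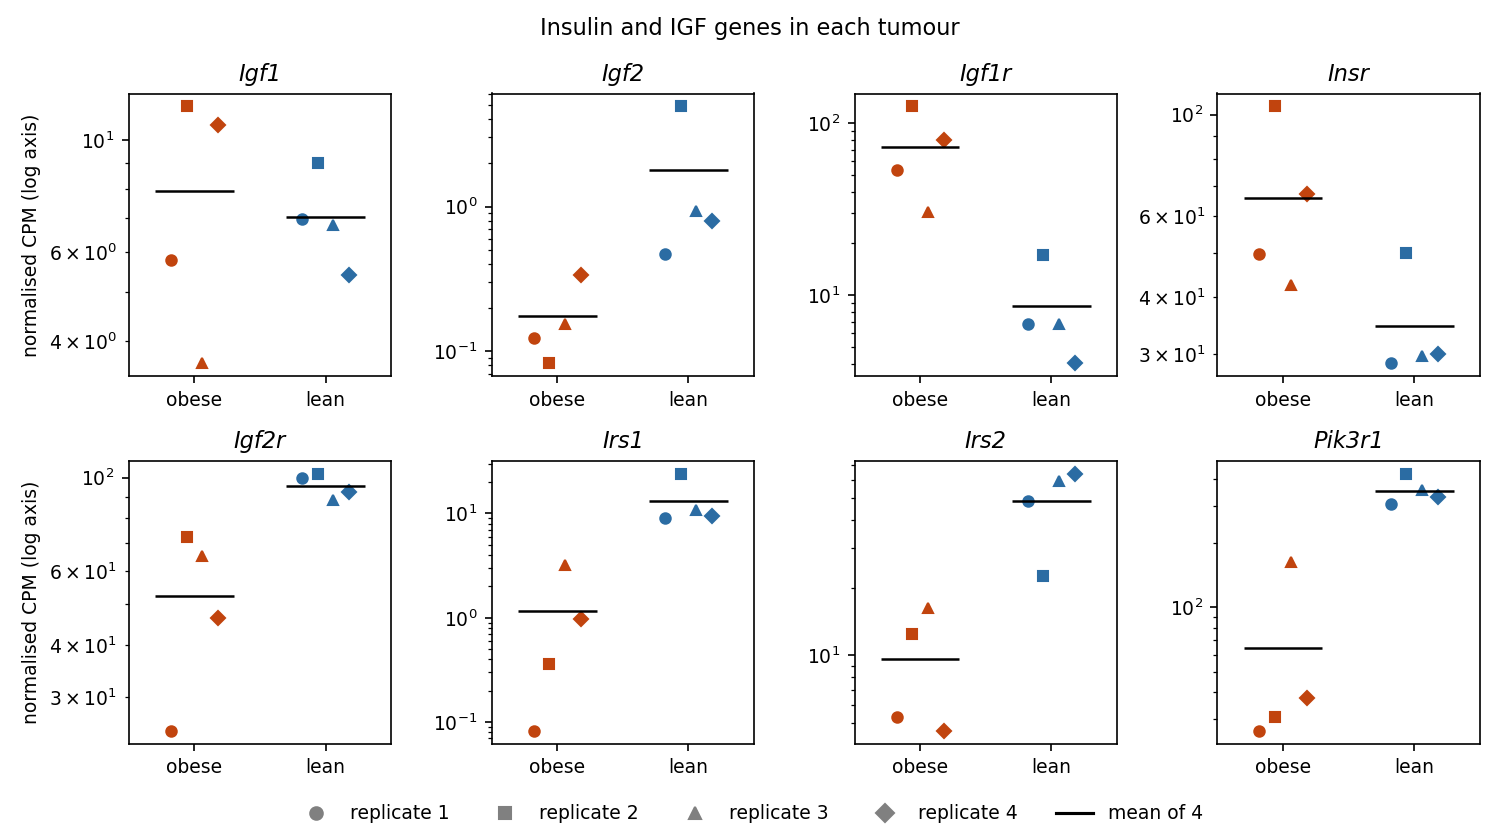
Normalised CPM of the 8 genes on log axes, with obese tumours on the left and lean tumours on the right of each panel; each symbol is a tumour and each black line the mean of 4. *Igf1r* lay from 30.5 to 125 CPM in obese tumours and from 4.01 to 17.1 CPM in lean tumours, and *Irs1* from 0.0826 to 3.17 CPM and from 9.13 to 23.9 CPM.

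Start regions of 4 of the genes are shown, those of *Irs1*, *Irs2* and *Igf2r* because they hold the hexamer CACGTG, and that of *Igf1r*, the gene with the largest rise of the 8, as one without it. Each is the run of 250 bases before the annotated start, from the RefSeq table of GRCm38.p6, whose start can differ from GENCODE's, written in the direction of the gene, with capitals marking CACGTG, the E-box core:
Irs1 (chr1:82291440-82291689, - strand): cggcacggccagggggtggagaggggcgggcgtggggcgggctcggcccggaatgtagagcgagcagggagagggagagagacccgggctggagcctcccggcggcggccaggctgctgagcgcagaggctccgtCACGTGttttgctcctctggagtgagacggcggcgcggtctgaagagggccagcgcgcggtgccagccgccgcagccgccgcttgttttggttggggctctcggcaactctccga
Irs2 (chr8:11008930-11009179, - strand): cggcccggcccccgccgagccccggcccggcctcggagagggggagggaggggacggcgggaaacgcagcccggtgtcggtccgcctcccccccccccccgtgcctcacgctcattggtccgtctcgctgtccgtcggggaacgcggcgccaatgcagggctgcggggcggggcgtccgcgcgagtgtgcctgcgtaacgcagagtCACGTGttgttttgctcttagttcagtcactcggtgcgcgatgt
Igf2r (chr17:12769707-12769956, - strand): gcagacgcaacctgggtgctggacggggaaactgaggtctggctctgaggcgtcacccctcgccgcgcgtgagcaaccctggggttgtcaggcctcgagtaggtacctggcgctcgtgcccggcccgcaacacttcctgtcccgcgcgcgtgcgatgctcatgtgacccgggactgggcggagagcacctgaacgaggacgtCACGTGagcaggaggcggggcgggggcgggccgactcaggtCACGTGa
Igf1r (chr7:67952007-67952256, + strand): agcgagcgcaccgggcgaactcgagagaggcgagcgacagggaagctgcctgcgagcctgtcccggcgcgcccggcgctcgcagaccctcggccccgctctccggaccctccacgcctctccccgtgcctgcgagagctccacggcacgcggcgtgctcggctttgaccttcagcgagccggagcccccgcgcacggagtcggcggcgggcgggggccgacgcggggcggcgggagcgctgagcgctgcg
The table held windows for 7 of the 8 genes, all but *Insr*. CACGTG, which reads alike on both strands, begins 115 bases before the start in *Irs1*, 44 in *Irs2*, and 48 and 7 in *Igf2r*, and no window of *Igf1r*, *Igf1*, *Igf2* or *Pik3r1* holds it. Of 32851 windows of this length, 6.02% do. The longest runs of letters that the *Irs1* and *Irs2* windows share are GTCACGTGTT, found in 23 of all windows on either strand, and TGTTTTGCTC, found in 21. The FoxO motif TGTTTAC, present in 3.17% of windows, was in none of these genes' windows on either strand. *Pik3r1* and *Igf2* also fell and their windows are not shown. CACGTG was searched, and the windows chosen, after the sequences had been read, and these matches describe letters only.

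Among the ligands, *Igf1* (ENSMUSG00000020053, chromosome 10, 87858265 to 87937042, + strand), the main mediator of growth hormone, had 5.78, 11.7, 3.62 and 10.7 CPM in obese replicates 1 to 4, against 6.97, 9.03, 6.79 and 5.40 CPM in lean replicates 1 to 4. The groups overlapped fully, with the lowest and the highest tumour both obese. The change was 0.17 ± 0.39 (edgeR adjusted p = 0.717), its sign was negative with upper quartile factors, library size only and GC and length offsets, and leaving out 1 tumour moved it between −0.06 and 0.43. In tissues this gene is made by fibroblasts, macrophages, adipocytes and muscle, among others. Macrophage markers summed to 1234 to 1526 CPM in obese and 672 to 1745 CPM in lean tumours, and 4 of 7 rose and 1 fell in obese tumours. The marker counts here stand beside 30.9% of all tested genes called higher and 28.4% called lower. Fibroblast markers summed to 362 to 1383 CPM in obese and 788 to 1003 CPM in lean tumours, and 1 of 7 rose and 4 fell. For adipocyte markers the sums were 34.0 to 430.4 CPM in obese and 111 to 421 CPM in lean tumours, with 0 of 7 called. The obese sums lay within the lean range for macrophages and spread beyond it on both sides for fibroblasts. Few genes dominate these sums. *C1qa* and *C1qb*, not called, gave 713 and 615 CPM of the highest lean macrophage sum. *Adgre1*, *Cd68*, *Mrc1* and *Itgam* lay higher in every obese tumour than in any lean tumour, as did 28.9% of tested genes, while *Csf1r* fell. *Col1a1* alone gave 945 CPM of the highest obese fibroblast sum. For adipocytes 3 obese tumours lay below the lean range and 1 above it. Skeletal muscle markers summed to 5.12 to 183 CPM in obese tumours and to 1223, 19.7, 91.2 and 1147 CPM in lean replicates 1 to 4. Of these markers 1 of 6 fell, *Pax7*, with 0 to 6 counts in obese and 18 to 60 counts in lean tumours. It was tested only through its lean levels. Endothelial markers summed to 114 to 165 CPM in obese and 123 to 273 CPM in lean tumours, and 2 of 5 fell. The liver is the main source of circulating IGF1, and hepatocyte markers summed to 0.231 to 0.495 CPM in obese and 0.994 to 2.91 CPM in lean tumours, with 1 of 4 tested, which fell. *Serpina1c* of the hepatocyte list was at 0 in all libraries and no other marker was, and the part of these cell types in the level of *Igf1* was not tested. In bulk RNA, fewer cells of a type and less RNA per cell cannot be told apart.

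*Igf2* (ENSMUSG00000048583, chromosome 7, 142650766 to 142666816, − strand), a fetal growth factor expressed from the paternal allele, was close to the detection limit in obese tumours. It had 3, 5, 8 and 14 counts in obese replicates 1 to 4 (0.124, 0.0824, 0.155 and 0.336 CPM), against 19, 257, 48 and 45 counts in lean replicates 1 to 4 (0.467, 4.92, 0.937 and 0.799 CPM). Each lean tumour lay above each obese tumour, and lean replicate 2 held more than the other lean tumours together. *Igf2* fell by 3.34 ± 0.89 on the log2 scale (edgeR adjusted p = 0.0137), or by 2.06 without lean replicate 2. Obese replicates 1 to 3 lay under the filter's minimum count of 10, so *Igf2* was tested only through its lean levels. Its call is thus no separate support for the fall. With a filter of 1 CPM in 4 tumours it was not tested. Its neighbour on chromosome 7, the maternally expressed noncoding gene *H19*, had 0.206, 2.26, 5.41 and 0.840 CPM in obese replicates 1 to 4, against 13.7 to 21.7 CPM in lean tumours, and fell as well (−3.10 ± 0.83, edgeR adjusted p = 0.0142). *Ins1* and *Ins2*, the mouse insulin genes, had 0 counts in every library, which allows up to 3 counts, or 0.0494 to 0.124 CPM depending on the library.

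The receptor *Igf1r* (ENSMUSG00000005533, chromosome 7, 67952827 to 68233668, + strand) had 53.7, 125, 30.5 and 79.5 CPM in obese replicates 1 to 4, against 6.80, 17.1, 6.83 and 4.01 CPM in lean replicates 1 to 4. Every obese tumour was above every lean tumour, with obese replicate 3 the lowest of its group and lean replicate 2 the highest of its own. The rise was 3.06 ± 0.58 (edgeR adjusted p = 0.00379) and ran from 2.66 to 3.62 when 1 tumour was left out. A rise of this size or more was seen for 2.94% of tested genes.

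*Insr* (ENSMUSG00000005534, chromosome 8, 3122061 to 3279617, − strand), the insulin receptor, had 49.5, 104, 42.5 and 67.0 CPM in obese replicates 1 to 4, against 28.7, 49.9, 29.7 and 30.03 CPM in lean replicates 1 to 4. The groups overlapped, because lean replicate 2 lay above obese replicates 1 and 3. The rise of 0.93 ± 0.32 passed (edgeR adjusted p = 0.0344), but leaving out obese replicate 2 ended the call (edgeR adjusted p = 0.0748), as did leaving out obese replicate 4 (0.0665) or lean replicate 1 (0.0841), 3 (0.0882) or 4 (0.0858). Upper quartile scaling (0.0698) and scaling by library size alone (0.0724) ended it too, with the median change of all genes at −0.25 and −0.22 there, and the adjusted p spanned 0.000282 to 0.0882 over all settings. *Insr* and *Igf1r* put the obese tumours in the same order, replicate 2 highest, then 4, 1 and 3.

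*Igf2r* (ENSMUSG00000023830, chromosome 17, 12682406 to 12769664, − strand), the receptor that clears IGF2, had 25.0, 72.3, 65.2 and 46.5 CPM in obese replicates 1 to 4, against 99.7, 102, 88.5 and 92.6 CPM in lean replicates 1 to 4. The lean tumours lay close together and above all obese tumours, of which replicate 1 was the lowest. The change was −0.87 ± 0.30 (edgeR adjusted p = 0.0339). Leaving out obese replicate 4 ended that call (edgeR adjusted p = 0.0870), as did leaving out lean replicate 1 (0.0552), 2 (0.0633) or 4 (0.0501), over a range of 0.00106 to 0.0870 in all settings. *Airn*, a noncoding RNA that overlaps *Igf2r* on the opposite strand and silences its paternal copy in mice, averaged 1.73 ± 0.765 CPM in obese and 4.38 ± 0.584 CPM in lean tumours (SD, n = 4 each) and fell too (−1.33 ± 0.37, edgeR adjusted p = 0.0166). The libraries were made with a stranded kit, but whether reads were counted by strand is not given in the sources used here, so reads of *Airn* and *Igf2r* where they overlap cannot be told apart.

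The docking protein gene *Irs1* (ENSMUSG00000055980, chromosome 1, 82233101 to 82291416, − strand) had 0.0826, 0.363, 3.17 and 0.984 CPM in obese replicates 1 to 4, against 9.13, 23.9, 10.7 and 9.39 CPM in lean replicates 1 to 4. Obese replicate 1 held 2 counts, and even obese replicate 3, the highest of its group, stayed below every lean tumour. *Irs1* fell by 3.51 ± 0.97 (edgeR adjusted p = 0.0156), and by 4.74 without obese replicate 3. Among the obese tumours its highest level was 38.4 times its lowest, the widest spread of the 8 genes within a group.

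*Irs2* (ENSMUSG00000038894, chromosome 8, 10984681 to 11008458, − strand), a second docking protein and a gene that FoxO factors induce in liver, had 5.33, 12.4, 16.2 and 4.61 CPM in obese replicates 1 to 4, against 48.6, 22.4, 59.8 and 64.2 CPM in lean replicates 1 to 4. The groups did not overlap, and lean replicate 2, which was highest in its group for *Irs1*, was lowest for *Irs2*. The change was −2.34 ± 0.50 (edgeR adjusted p = 0.00592), from −2.69 to −2.09 when 1 tumour was left out.

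*Pik3r1* (ENSMUSG00000041417, chromosome 13, 101680563 to 101768217, − strand) had 26.3, 30.6, 163 and 37.5 CPM in obese replicates 1 to 4, against 308, 425, 355 and 330.3 CPM in lean replicates 1 to 4. Obese replicate 3 stood between the other obese tumours and the lean tumours. The change was −2.46 ± 0.61 (edgeR adjusted p = 0.0111), and −3.48 without obese replicate 3. In that tumour the epithelial markers also summed to 817 CPM, against 63.1 to 274 CPM in the other obese tumours. Over the full comparison 3 of 7 markers were called lower, of which *Krt19* and *Cldn4* were tested only through their lean levels. All 7 lay lower in every obese tumour than in any lean tumour, as did 28.1% of tested genes. *Irs1*, *Irs2* and *Pik3r1* were each highest in obese replicate 3 within the obese group, and the part of epithelial content in this was not tested. Without that tumour all 3 genes were called with larger changes.

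**Figure D2:**
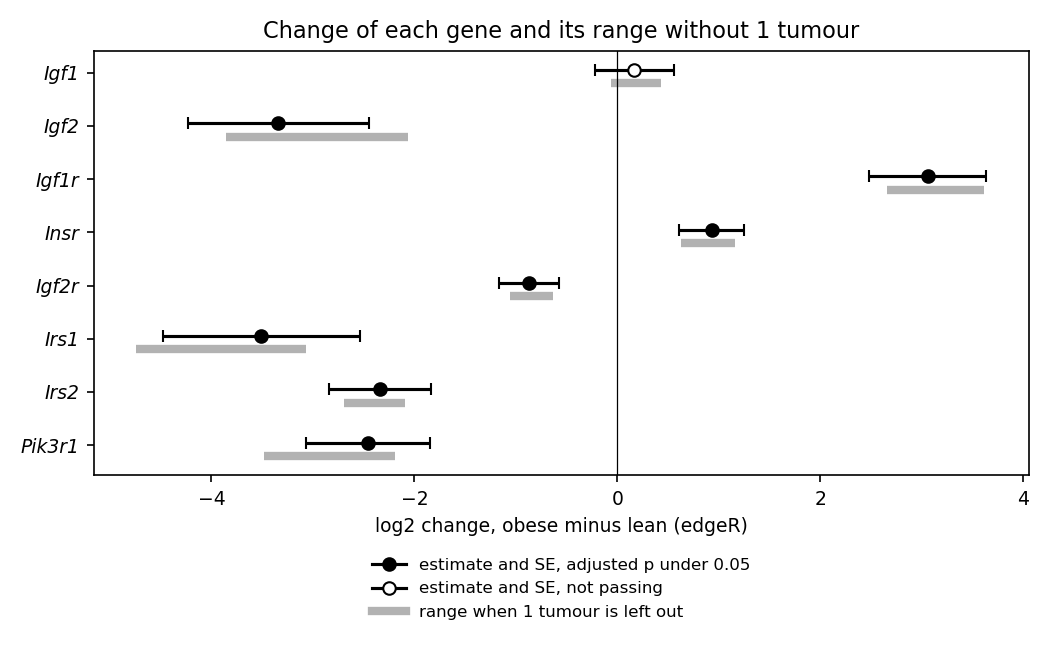
Log2 change of obese minus lean for each gene (dots, with SE bars; filled where edgeR's adjusted p is under 0.05) above the range obtained when 1 tumour is left out (grey bars). The grey bar of *Igf1* crosses 0, from −0.06 to 0.43, and those of the other 7 genes stay on 1 side of 0.

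Per kilobase of exon, the order of the genes differed between the groups. In obese tumours the levels were 6.38 ± 6.54 CPM per kilobase for *Pik3r1*, 5.61 ± 2.28 for *Igf2r*, 4.79 ± 2.01 for *Insr* and 4.30 ± 2.42 for *Igf1r*, which lay within each other's SD. *Irs2* followed at 1.52 ± 0.889, *Igf1* at 0.802 ± 0.391, *Irs1* at 0.126 ± 0.153 and *Igf2* at 0.0304 ± 0.0195 CPM per kilobase (SD, n = 4). In lean tumours *Pik3r1* stood apart at 35.2 ± 5.02 CPM per kilobase, a level above that of 88.9% of tested genes. *Igf2r* came next at 10.3 ± 0.673, then *Irs2* at 7.71 ± 2.96 and *Insr* at 2.52 ± 0.746 CPM per kilobase. The lowest lean levels were 1.45 ± 0.780 for *Irs1*, 0.712 ± 0.151 for *Igf1*, 0.517 ± 0.343 for *Igf1r* and 0.311 ± 0.368 CPM per kilobase for *Igf2* (SD, n = 4). Among neighbours in the lean order, only *Pik3r1* and *Igf2r*, and *Irs2* and *Insr*, were separated by more than their SDs. In the obese order only *Igf1* and *Irs1* were. The lengths are unions of all annotated exons, so a gene with long rarely used exons reads low on this scale.

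Ratios per kilobase of exon between genes of like role were taken within each tumour, which removes the scaling between libraries. *Igf1r* over *Insr* was 0.887, 0.984, 0.587 and 0.971 in obese replicates 1 to 4, against 0.194, 0.280, 0.188 and 0.109 in lean replicates 1 to 4. On this scale *Insr* was above *Igf1r* in all 8 tumours, by a small margin in 3 obese tumours. *Igf1* over *Igf2* ran from 13.5 to 81.8 in obese and from 1.06 to 8.64 in lean tumours. Its obese values rest on 3, 5, 8 and 14 counts of *Igf2*, close to the detection limit, so their size is uncertain. *Irs2* exceeded *Irs1* in all 8 tumours, and the ratio of *Irs1* over *Irs2* overlapped between the groups, with 0.0107 to 0.148 in obese and 0.101 to 0.738 in lean tumours. A further pair of ratios was chosen after the values were seen. In each, both genes already separated the groups, in opposite directions, so the ratio had to separate them too. *Igf2r* over *Igf1r* was 0.840 to 3.85 in obese and 10.8 to 41.6 in lean tumours. *Pik3ca*, which encodes the catalytic partner p110-alpha, over *Pik3r1* was 4.39, 5.38, 0.645 and 3.82 in obese replicates 1 to 4 and 0.158 to 0.197 in lean tumours. Obese replicate 3 was the only obese tumour in which that ratio stayed below 1.

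**Figure D3:**
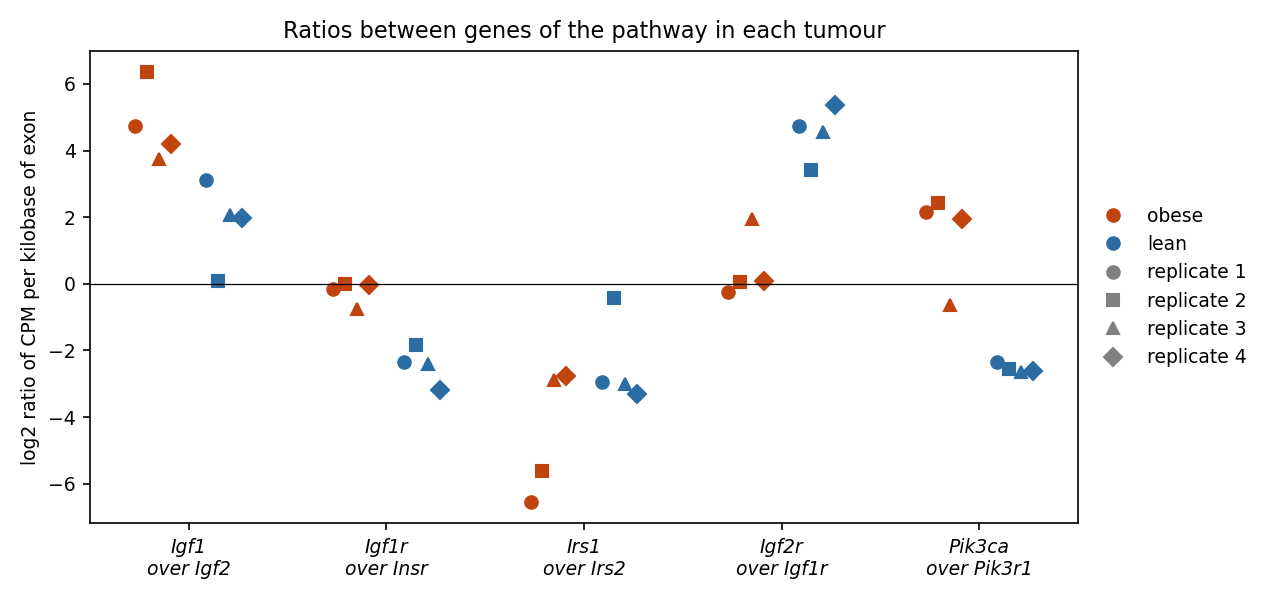
Log2 ratio of CPM per kilobase of exon between 2 genes in each tumour, obese (left of each pair) and lean (right); 0 means equal levels. The groups overlap for *Irs1* over *Irs2* and are separate for the other ratios. For *Igf2r* over *Igf1r* and *Pik3ca* over *Pik3r1*, chosen after the values were seen, that outcome was fixed in advance. Both genes of each pair already separated the groups, in opposite directions. The obese values of *Igf1* over *Igf2* rest on 3 to 14 counts of *Igf2*.

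Genes whose levels followed a member most closely were ranked by Pearson's r of log2 CPM over the 8 tumours, which is given as a description, since the difference between the groups enters it. The closest to *Igf1r* were *Creb3l2*, *Ppp1r12a* and *Ahctf1* (r from 0.996 to 0.997). *Pcx*, *Bach2* and *Tesk2* came closest to *Irs1* (0.995 to 0.998), and *Ephb6* and *Atp6v1c2* were among the closest to *Pik3r1* (0.998 to 0.999). For *Igf1* they were *Cd163*, a scavenger receptor of macrophages (0.966), *Zc3h13* (0.932) and *Klf4* (0.930).

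The rest of the pathway was covered by 7 lists, chosen by role. Their counts stand beside 30.9% of all tested genes called higher and 28.4% called lower in obese tumours. Among kinases and phosphatases of the PI3K and AKT step, 7 of 14 tested genes rose and 1 fell, with a median log2 change of 0.36 against −0.04 over all tested genes. *Pik3ca* averaged 119 ± 24.4 CPM in obese and 54.7 ± 7.44 CPM in lean tumours (SD, n = 4 each), a change of 1.13 ± 0.17 (edgeR adjusted p = 0.00153). *Phlpp2*, a phosphatase that acts on AKT (1.40 ± 0.22), and *Pdpk1*, the kinase that activates AKT (0.70 ± 0.16), also rose. Without lean replicate 3 or lean replicate 4, 5 of these genes were called. *Pik3r3*, which encodes another regulatory subunit and was picked out after its values were seen, had 2.44, 2.16, 109.9 and 4.39 CPM in obese replicates 1 to 4, against 157 to 193 CPM in lean tumours. Obese replicate 3 again stood near the lean tumours, and the change of −2.58 ± 1.29 did not pass (edgeR adjusted p = 0.115).

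Of 9 tested genes among the other ligands, the related receptor and the other adaptors, 2 rose and 1 fell (median 0.10). For all tested genes the shares were 30.9% and 28.4%. *Gab1*, a docking protein of receptor kinases, averaged 188 ± 45.0 CPM in obese and 55.3 ± 0.734 CPM in lean tumours (1.77 ± 0.18, edgeR adjusted p = 0.000322). *Shc1*, an adaptor toward RAS, rose (0.57 ± 0.11) and *Sh2b1*, an adaptor that binds the insulin receptor, fell (−1.20 ± 0.20). Without obese replicate 2, 5 of these genes were called. In the mTOR branch 3 of 11 genes rose and 2 fell (median 0.01). *Eif4ebp1*, the translation repressor that mTOR inactivates, averaged 154 ± 36.2 CPM in obese and 36.2 ± 8.49 CPM in lean tumours (2.09 ± 0.23, edgeR adjusted p = 0.000408). *Mtor* (0.99 ± 0.19) and *Rictor* (1.09 ± 0.25), a subunit of mTOR complex 2, rose, and *Ddit4*, an inhibitor of mTOR complex 1, fell (−1.41 ± 0.25).

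FoxO transcription factors are kept out of the nucleus by AKT. Among them and genes they induce 2 of 12 tested genes rose and 5 fell (median −1.39). Of all tested genes 30.9% rose and 28.4% fell. *Foxo1* averaged 11.1 ± 12.4 CPM in obese and 89.0 ± 14.3 CPM in lean tumours (−2.99 ± 0.69, edgeR adjusted p = 0.00798), with 29.6 CPM in obese replicate 3, and changed by −4.14 without that tumour. *Foxo4* went the other way, at 151 ± 37.2 CPM in obese and 33.5 ± 6.76 CPM in lean tumours (2.17 ± 0.23, edgeR adjusted p = 0.000354). *Foxo3* fell (−0.97 ± 0.24) and *Cdkn1b*, a cell cycle inhibitor, rose (0.70 ± 0.20), though the *Cdkn1b* call ended with upper quartile factors (edgeR adjusted p = 0.0601) and with GC and length offsets (0.176), over a range of 0.00730 to 0.176. The count of 7 was 4 without obese replicate 1 or lean replicate 2.

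Of 11 binding proteins and proteases of the IGFs 2 rose and 4 fell (median −2.45), beside 30.9% and 28.4% of all tested genes. *Igfbp6*, which binds IGF2 by preference, averaged 31.9 ± 16.8 CPM in obese and 3.03 ± 1.10 CPM in lean tumours (3.40 ± 0.42, edgeR adjusted p = 0.000650). *Pappa2*, a protease that cleaves binding proteins, rose (3.81 ± 0.85). It had 22, 8, 3 and 8 counts in lean replicates 1 to 4, against 43 to 235 counts in obese tumours. *Pappa2* was thus tested only through its obese levels, and its call is no separate support for the rise. *Igfbp7* (−2.09 ± 0.24) and *Stc2*, an inhibitor of such proteases (−5.77 ± 1.07), fell. Among imprinted neighbours 3 of 5 genes were tested, and *H19* and *Airn* fell while *Slc22a3* was not called (−0.67).

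A last list held genes for lysosomal enzymes, which IGF2R carries, and for the tagging and sorting of such enzymes. Of its 10 genes 5 rose and 3 fell (median 0.48), beside 30.9% and 28.4% of all tested genes. *Ctsl*, a lysosomal protease, averaged 1695 ± 312 CPM in obese and 211 ± 47.3 CPM in lean tumours (3.0 ± 0.21, edgeR adjusted p = 0.000159). *M6pr*, the other mannose 6-phosphate receptor, averaged 497 ± 79.6 CPM in obese and 292 ± 20.9 CPM in lean tumours (0.77 ± 0.14, edgeR adjusted p = 0.00328), in contrast to the fall of *Igf2r*. *Gnptab*, which makes the mannose 6-phosphate tag (1.07 ± 0.17), and the protease gene *Ctsb* (0.88 ± 0.18) rose as well. The count of 8 was 5 without obese replicate 2 or 4 and without lean replicate 3 or 4.

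**Figure D4:**
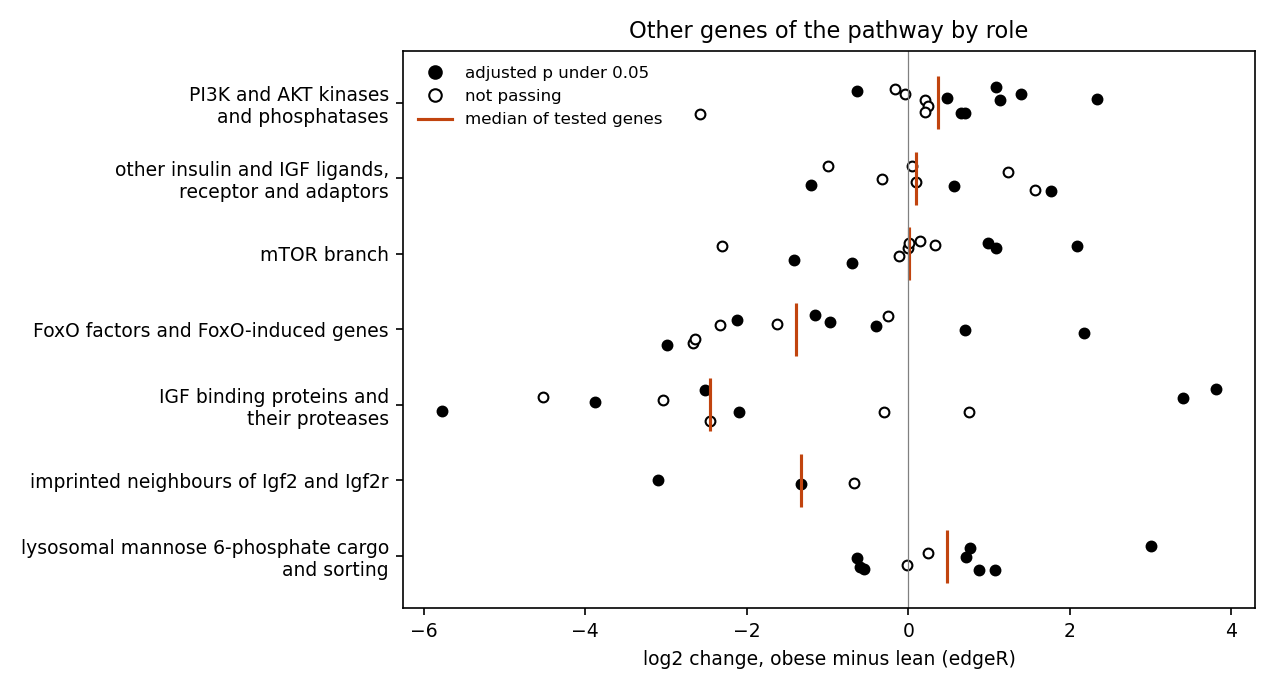
Log2 change of obese minus lean for each tested gene of the 7 lists (filled where edgeR's adjusted p is under 0.05), with the median of each list as a vertical bar. The medians run from −2.45 for the binding proteins and proteases to 0.48 for the lysosomal list.

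**Figure D5:**
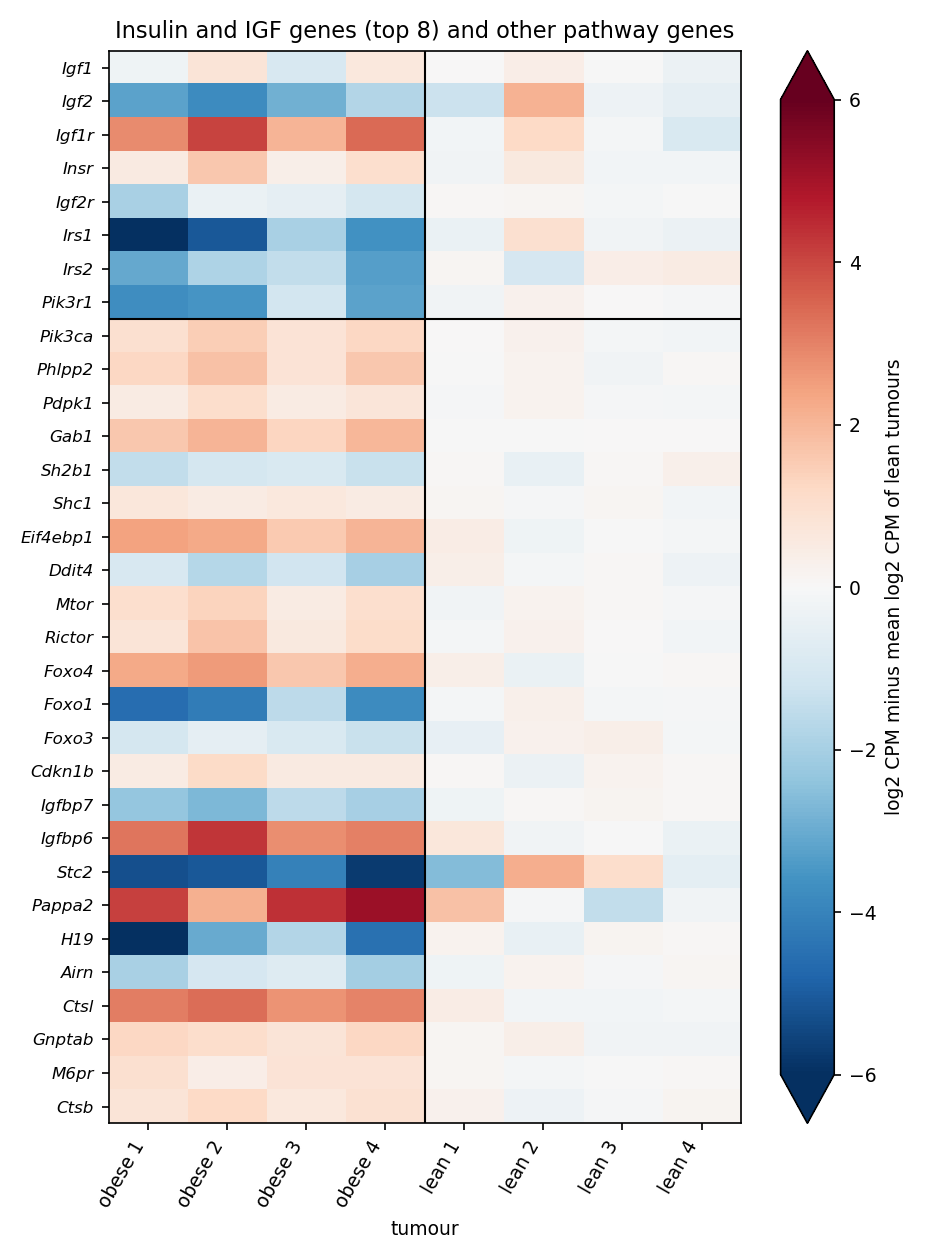
Log2 CPM minus the mean log2 CPM of the lean tumours for the 8 genes (above the line) and other pathway genes, with obese tumours on the left and lean tumours on the right; red is higher and blue lower than the lean mean, and colours saturate at 6 units either way. Obese replicate 3 is paler than the other obese tumours for *Irs1*, *Pik3r1* and *Foxo1*.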

How the data were processed

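Per the labels, RNA was sequenced from snap-frozen tumours, 4 per group, with a stranded library kit. The authors deposited raw counts, whole numbers of reads per Ensembl gene in each tumour. For alignment and counting the submitters' processing notes name STAR 2.5.2b and HTSeq on mm10, after cutadapt 1.12. Base calling used CASAVA 1.8 and bcl2fastq 2.18.0.12, per the same notes. The annotation and the strand setting are not given in the sources used here. Replicate numbers only name tumours. Nothing states that each tumour came from a separate mouse, so p-values measure the spread between these samples.

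Symbols and coordinates (from 1) came from GENCODE M21 (GRCm38), which named 49412 of 50143 IDs. After edgeR's filterByExpr (minimum count 10, minimum total 15) and TMM scaling, a robust quasi-likelihood F test was run, two-sided, with Benjamini-Hochberg adjustment over 14887 genes at 0.05. The SE was obtained as the size of the change divided by the root of F. Ratios use union exon lengths. A count of 0 allows 3 counts, counting error only.

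The 8 genes, the lists and the planned settings were chosen with earlier results of these data known. The text names the 8 genes, up to 4 called genes with the smallest p per list, and for some of the 8 genes the 3 genes most correlated with them. Of the genes so chosen, 2 are not reported here. *Slc22a3*, *Pik3r3*, the marker genes and 2 of the ratios were named after their values were seen. Other settings were 3 scalings, 2 filters, limma-voom with or without quality weights, DESeq2's Wald test, a surrogate variable, loess offsets for exon length and the GC content of the longest transcript (99.1% of tested genes), and leaving out each tumour. Leaving out a pair of tumours was added after the data were seen. The fit was tested on simulated data, where 16.9% of 83 genes changed 2-fold and 53.1% of 113 changed 4-fold were recovered. Far fewer genes were changed there than were called here, so these shares do not carry over. The tools were edgeR 4.0.16 and limma 3.58.1 in R 4.3.3. For the alternatives, sva 3.50.0 and DESeq2 1.42.0 were used.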

Additional observations from a re-analysis of the deposited data

Results flagged for a closer look

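In each group of 4 tumours, the gap of the highest or lowest tumour to its neighbour was set against the whole range of log2 CPM, for the 8 genes in both groups (16 groups), where chance marks about 1 in 20. A single tumour, lean replicate 2, was marked, for 2 genes. *Insr* stood at 49.9 CPM there, against 28.7 to 30.03 CPM in the other lean tumours. *Irs1* stood at 23.9 CPM there, against 9.13 to 10.7 CPM in the other lean tumours. The same tumour also had the highest lean levels of *Igf1*, *Igf2*, *Igf1r*, *Igf2r* and *Pik3r1*, and the lowest of *Irs2*. Its macrophage markers summed to 672 CPM, against 1359 to 1745 CPM in the other lean tumours, and its endothelial markers to 273 CPM, against 123 to 180.2 CPM. Adipocyte markers summed to 421 CPM there, against 111 to 214 CPM, epithelial markers to 1328 CPM, against 1940.1 to 2589 CPM, and skeletal muscle markers to 19.7 CPM, against 91.2 to 1223 CPM in the other lean tumours. The part of these cell types in the levels of the 8 genes was not tested. Without lean replicate 2 the changes of *Insr* and *Irs1* were 1.16 and −3.07, and both were called.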

How the results depend on the processing

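Over 19 other settings, 136 of 151 values for the 8 genes kept their direction and their side of the threshold. *Igf1r*, *Igf2*, *Irs1*, *Irs2* and *Pik3r1* were called in every setting in which they were tested, with highest adjusted p of 0.0158, 0.0386, 0.0449, 0.0163 and 0.0334. *Igf2r* and *Insr* lost the call in 4 and 7 settings and kept their direction. *Igf1*, not called in any, changed sign with upper quartile factors (−0.05), library size only (−0.03), GC and length offsets (−0.35) and without obese replicate 2 (−0.06), over a range of −0.06 to 0.43 when 1 tumour was left out. Between 6 and 7 of the 8 genes were called with other tools, scalings and filters, and 5 to 7 when 1 tumour was left out. All tested genes called numbered 8016 to 11397 with other tools, scalings and filters, and 7143 to 9833 when 1 tumour was left out. The median change of all genes shifted by −0.21, −0.19 and −0.11 with upper quartile factors, library size only and no filter.

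Of the lists, the other ligands and adaptors had 5 called genes, against 3, with upper quartile factors and with the DESeq2 Wald test, and 3 to 5 when 1 tumour was left out. The mTOR branch had 8, against 5, with GC and length offsets. The binding proteins had 10, against 6, with quality-weighted limma-voom and with both obese replicate 3 and lean replicate 2 left out. When 1 tumour was left out, the PI3K and AKT list had 5 to 8 called genes, the FoxO list 4 to 8 and the lysosomal list 5 to 8. The cause of these shifts was not tested. No paired analysis was possible because the labels give the tumours no shared numbers. Depth limits *Igf2* and *Irs1*, with 3 and 2 counts in obese replicate 1.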
